A study of Homo sapiens with 4 samples.

Results

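The aminoacyl-tRNA synthetases are the enzymes that join each amino acid to its transfer RNA, the step that supplies the ribosome with substrate. Here 36 of their genes were followed among the 20457 features of the expression tables. They were taken by symbol, from a list chosen with earlier results of these data known. Of these, 20 encode cytosolic enzymes and 16 encode mitochondrial enzymes, whose symbols end in 2; *GARS* and *KARS*, counted with the cytosolic set, each supply both compartments. All 36 were found in every table, and all 36 passed the filter of a mean of at least 1 TPM (transcripts per 1000000, an abundance corrected for gene length and scaled to the same sum in every library).

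The cells were HEK293, a wild-type human embryonic kidney line, and all were exposed to 10 nM siRNA for 72 h. In the siControl group (2 libraries) the siRNA was a negative control, and in the siCNOT4 group (2 libraries) it was directed against *CNOT4*, a ubiquitin-transferring enzyme bound to CCR4-NOT, which shortens poly(A) tails. The series was designed around the role of *CNOT4* in how codon choice influences gene expression. Nothing in the labels says whether replicates were separate cultures, so the p values measure only the spread between these libraries.

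Cytosolic and mitochondrial translation use separate sets of synthetases, all encoded in the nucleus. Several cytosolic synthetases are held with 3 scaffold proteins in the multi-synthetase complex. Many cytosolic synthetase genes are also known targets of ATF4, the transcription factor of the integrated stress response, which binds C/EBP-ATF response elements near their start sites.

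*CNOT4* itself was at 6.43 and 4.73 TPM in siControl and at 3.38 and 3.81 TPM in siCNOT4, and differed by -0.51 on the log2 scale (SE 0.26) with a limma adjusted p of 0.184. Its groups did not overlap. TPM keeps no read totals, and steps in the low values put the libraries at roughly 37000000 to 37900000 reads, an estimate that rests on reference transcript lengths. At that depth the members were covered by an estimated 304 to 21637 reads per library. The median of all 14208 tested features was higher in siCNOT4 by 0.50 on the log2(TPM + 1) scale, where siControl replicate 1 exceeded replicate 2 by 0.38 and the siCNOT4 replicates were -0.03 apart. Fold changes are therefore given both for TPM as deposited and after scaling with TMM factors (a trimmed mean of log ratios between libraries), which brought that median to 0.03. After TMM scaling *CNOT4* was at -0.93 (limma adjusted p 0.0361). Of the HEK293 markers, *VIM* fell from 917 and 650 TPM to 369 and 354 (limma adjusted p 0.0288) while *KRT18* (197 and 193 against 246 and 264 TPM) and *LIN28B* (52.6 and 22.1 against 74.2 and 68.7 TPM) lay higher in siCNOT4 without passing (limma adjusted p 0.0919 and 0.1). *KRT8* was between 303 and 360 TPM and *NEFL* between 307 and 384 TPM, and *NEFM* was under 1 TPM in all libraries. Blood and hepatocyte markers were at most 0.857 TPM, and *HBB* was listed at 0. The fibroblast markers *COL1A1* (1.39 and 0.906 TPM against 5.09 and 6.60) and *LUM* (0.182 and 0.225 against 3.75 and 2.67) rose at these low levels (limma adjusted p 0.0248 and 0.0227), and *DCN* was at most 0.226 TPM. The part of these markers in the results was not tested. In bulk RNA, fewer cells of a type and less RNA per cell cannot be told apart.

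The cytosolic genes were the more abundant set. Their mean over the 4 libraries ran from 11.0 TPM for *VARS* and 63.0 for *CARS* to 321 for *NARS* and 356 for *TARS*. The mitochondrial genes ran from 10.3 TPM for *VARS2* to 111 for *RARS2* and 228 for *IARS2*. Most neighbours in this order overlapped over the libraries, such as *TARS* (300 to 388 TPM) and *NARS* (253 to 368 TPM). The ranges lay apart for *WARS* and *CARS*, *CARS* and *VARS*, *IARS2* and *RARS2*, *HARS2* and *YARS2*, and *WARS2* and *MARS2*. *IARS2*, which charges mitochondrial isoleucine tRNA, stood apart from the other mitochondrial genes and exceeded its cytosolic partner *IARS* in 3 of the 4 libraries. *VARS* and *VARS2* were the lowest of their sets. Both lie in the major histocompatibility region, which the hg19 genome also carries on alternative haplotype sequences, so their levels are uncertain if those sequences were in the authors' index.

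**Figure D1:**
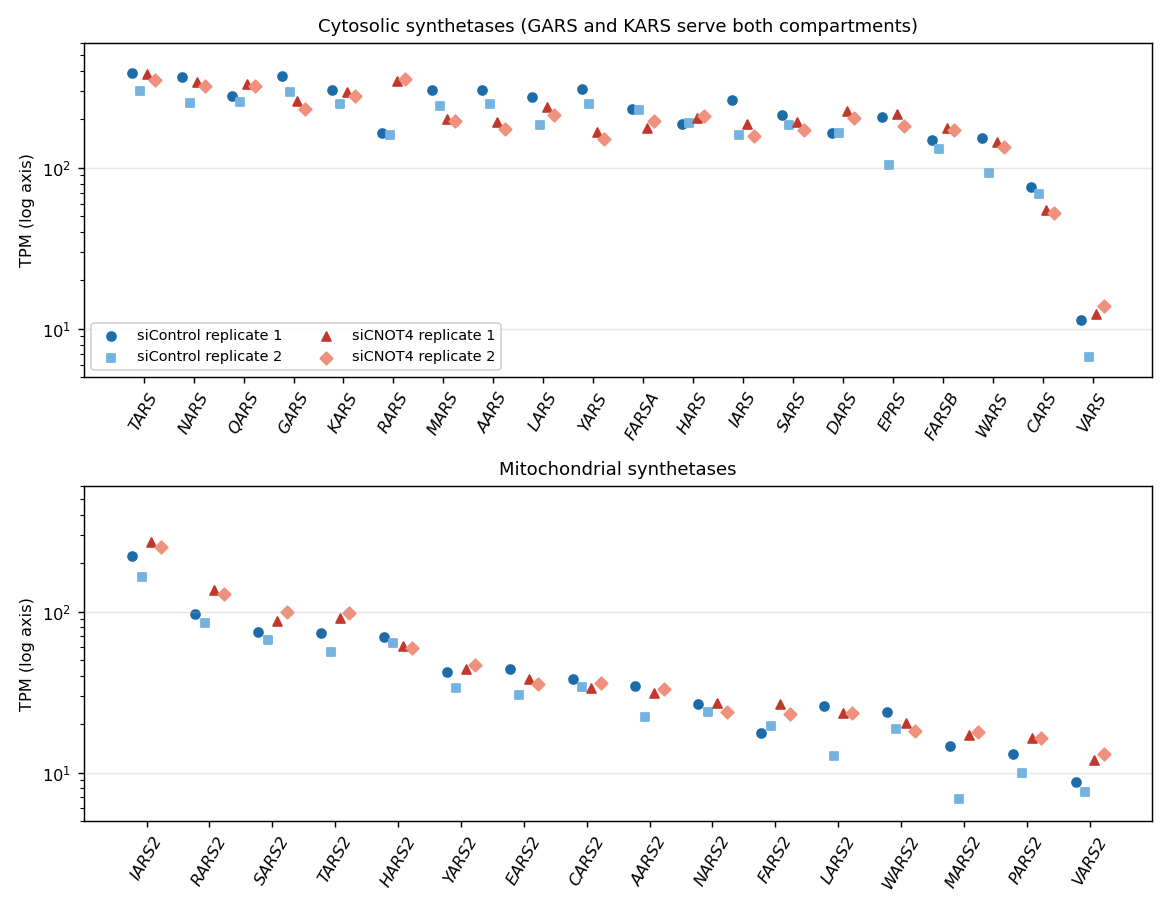
TPM (log axis) of the 20 cytosolic and 16 mitochondrial synthetase genes in each of the 4 libraries, ordered by mean; blue marks are siControl and red marks siCNOT4. *RARS* is the cytosolic gene with both red marks far above both blue marks, and *YARS* the one with both far below.

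The replicates of siControl matched less closely than those of siCNOT4. Among the 36 genes, the TPM ratio of siControl replicate 1 to replicate 2 ran from 0.907 to 2.13 with a median of 1.25, and it exceeded 1.5 in 8 genes. The siCNOT4 ratio ran from 0.870 to 1.20. The largest siControl gaps were in *MARS2* (2.13), *LARS2* (2.04) and *EPRS* (1.98). Across the 36 genes the siControl ratio had a Spearman rho of 0.418 with transcript length, and the siCNOT4 ratio 0.142; these genes share their libraries, so the values are descriptions.

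In the comparison of siCNOT4 with siControl, 2 of the 36 genes passed the test for TPM as deposited: *RARS* rose and *YARS* fell. Among all tested features, 11.3% were called higher and 1.3% lower at a limma adjusted p under 0.05. Both siCNOT4 libraries lay below both siControl libraries in 6 of the 20 cytosolic genes (*YARS*, *AARS*, *MARS*, *GARS*, *CARS* and *FARSA*) and above them in 6 (*RARS*, *VARS*, *DARS*, *FARSB*, *QARS* and *HARS*). The background over all features was 10.6% below and 66.4% above. The median log2 fold change of the cytosolic genes was 0.09, which is 0.41 under the median of all features, and 18 of 20 lay under that median. After TMM scaling, 5 cytosolic genes were called lower (*YARS*, *AARS*, *MARS*, *GARS* and *CARS*) and 0 higher, against a background of 4.51% lower and 4.86% higher. At an unadjusted p under 0.05 there were 10 lower and 1 higher, against 17.2% and 19.2% of all features. The 5 calls after TMM scaling were lost with either siCNOT4 replicate left out. In those fits 1 library stands for its group, and a smaller share of all features was called than with all 4 libraries. On that scale 16 of 20 had both siCNOT4 libraries below both siControl libraries and 1 had both above, against 33.3% and 36.5% of all features.

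**Figure D2:**
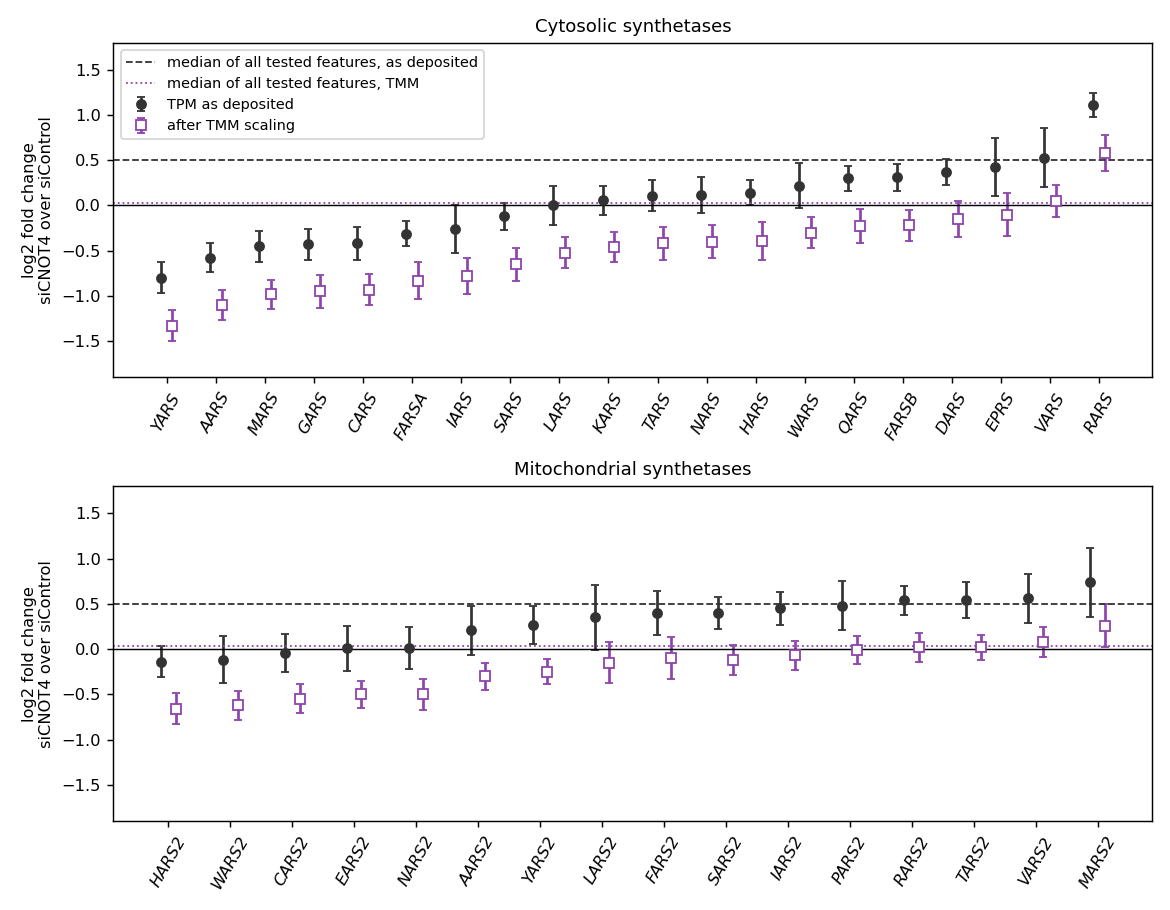
Log2 fold change (siCNOT4 over siControl, on the log2(TPM + 1) scale) of each synthetase gene, for TPM as deposited (filled) and after TMM scaling (open); bars are the limma SE and dashed or dotted lines the medians of all tested features. Most cytosolic genes lie under the line of their own scale, and *RARS* lies above both.

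*YARS*, the tyrosine enzyme, had 311 and 250 TPM in siControl and 168 and 151 TPM in siCNOT4. Its mean ± SD was 280 ± 43.1 against 159 ± 12.2 TPM (n = 2 each), a ratio of 0.569. The lowest control library was thus well above the highest siCNOT4 library. It fell by 0.80 on the log2 scale (SE 0.17, limma adjusted p 0.0413), and 1.36% of tested features had a lower value. After TMM scaling it was -1.33 (limma adjusted p 0.0286). The call was kept without siControl replicate 1 and without siControl replicate 2, where the difference was -0.65 and -0.96. It was lost without siCNOT4 replicate 1 and without siCNOT4 replicate 2, where the difference was -0.88 and -0.73. It was also lost with a pseudocount of 0.1 (0.0579), with no filter (0.0655) and with a minimum of 5 TPM (0.0599).

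*AARS*, the alanine enzyme, had 304 and 250 TPM in siControl and 193 and 175 TPM in siCNOT4. *MARS*, which charges methionine tRNA for both initiation and elongation, had 307 and 242 against 202 and 196 TPM. *CARS*, the cysteine enzyme, had 75.9 and 68.5 against 55.0 and 52.6 TPM. For these 3 genes the groups did not overlap, and the group means stood in ratios of 0.665, 0.725 and 0.746. As deposited, the log2 fold changes were -0.58, -0.45 and -0.42, with limma adjusted p values of 0.0597, 0.0952 and 0.126, so none passed. After TMM scaling they were -1.10, -0.98 and -0.93, and all 3 passed with limma adjusted p values of 0.0326, 0.0350 and 0.0372. *MARS* shares 7.38% of its annotated exonic bases with *ARHGAP9* and 5.05% with *DDIT3*, both on the opposite strand, and whether the counting used strand is not given in the sources used here.

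The bifunctional genes differed from each other. *GARS*, the glycine enzyme, had 372 and 296 TPM in siControl and 260 and 233 TPM in siCNOT4, without overlap, and differed by -0.43 on the log2 scale (SE 0.17, limma adjusted p 0.106). After TMM scaling this was -0.95 (limma adjusted p 0.0406). *KARS*, the lysine enzyme, had 304 and 248 against 297 and 278 TPM, and the siCNOT4 values lay inside the control range. Its log2 fold change was 0.06 (SE 0.16) and, after TMM scaling, -0.46 (limma adjusted p 0.125). The difference between *GARS* and *KARS* was not tested.

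*RARS*, the arginine enzyme, went the other way. It had 165 and 160 TPM in siControl and 347 and 355 TPM in siCNOT4, or 162 ± 3.18 against 351 ± 6.18 TPM (SD, n = 2 each). Both groups were tight and far apart, with a ratio of 2.16. It rose by 1.11 on the log2 scale (SE 0.13, limma adjusted p 0.0227), higher than in 86.9% of tested features. Relative to the median of all features it was 0.61. After TMM scaling it was 0.58 and did not pass (limma adjusted p 0.103). Without siControl replicate 1 or 2 the value was 1.13 or 1.09, and the call was kept. Without siCNOT4 replicate 1 or 2 the value was 1.12 or 1.09, and the call was lost. With each library centred on its median the value was 0.54 (limma adjusted p 0.192).

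*EPRS* and *VARS* had the next highest cytosolic fold changes, and neither passed. *EPRS*, which carries the glutamate and proline enzymes in a single chain, had 208 and 105 TPM in siControl and 217 and 183 TPM in siCNOT4, so its groups overlapped. Its fold change was 0.43 with an SE of 0.32, the control replicates being nearly as far apart as any of the libraries. *VARS*, the valine enzyme, had 11.4 and 6.67 against 12.3 and 13.8 TPM, and a fold change of 0.53 (SE 0.33, limma adjusted p 0.251). The phenylalanine enzyme is built from the products of *FARSA* and *FARSB*, which had opposite signs: -0.31 for *FARSA* (232 and 228 against 176 and 195 TPM) and 0.31 for *FARSB* (150 and 131 against 176 and 172 TPM). Neither passed, with limma adjusted p values of 0.149 and 0.170, but in both the groups did not overlap. After TMM scaling both were negative, at -0.83 and -0.22, with both siCNOT4 libraries below. The other cytosolic genes (*DARS*, *HARS*, *IARS*, *LARS*, *NARS*, *QARS*, *SARS*, *TARS* and *WARS*) had fold changes from -0.26 to 0.37, and none passed on either scale.

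*RARS* encodes a subunit of the multi-synthetase complex, and the other enzymes of that complex did not share its value. Of the 8 enzymes (*DARS*, *EPRS*, *IARS*, *KARS*, *LARS*, *MARS*, *QARS* and *RARS*), 1 was called higher and 0 lower as deposited, against 11.3% and 1.3% of all features. At an unadjusted p under 0.05 there were 2 higher and 1 lower, against 38.0% and 4.0%. Their fold changes ran from -0.45 for *MARS* to 1.11 for *RARS*, with a median of 0.18, against -0.01 for the 12 cytosolic genes outside the complex. After TMM scaling these medians were -0.34 and -0.53. The scaffold genes *AIMP1*, *AIMP2* and *EEF1E1* had fold changes of 0.31, -0.22 and 0.22, and none of the 3 passed (limma adjusted p 0.293, 0.284 and 0.272; 0 with an unadjusted p under 0.05). After TMM scaling all 3 were negative, from -0.74 to -0.21, and 0 were called, with 1 at an unadjusted p under 0.05. The 9 class I and 10 class II cytosolic enzymes, which differ in the fold of the catalytic domain, had median fold changes of -0.00 and 0.09, and the sign of the gap differed among the 4 pairings of libraries.

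With the trends over transcript length and GC content removed from each library (13734 features), 1 of the 20 cytosolic genes was called higher (*RARS*, log2 fold change 0.64, limma adjusted p 0.0251) and 9 lower, against a background of 10.9% and 11.9%. The 9 were *YARS*, *AARS*, *IARS*, *MARS*, *CARS*, *GARS*, *LARS*, *TARS* and *FARSA*. *IARS* (266 and 160 against 188 and 157 TPM) and *LARS* (277 and 184 against 238 and 214 TPM) had wide control pairs and overlapping groups as deposited. With the trends removed, their fold changes were -0.92 and -0.71 with limma adjusted p values of 0.0167 and 0.0184.

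None of the 16 mitochondrial genes passed the test as deposited, where limma gave 3 of 16 higher and 0 lower at an unadjusted p under 0.05, against 38.0% and 4.0% of all features. After TMM scaling none passed either, with 0 higher and 5 lower at an unadjusted limma p under 0.05, against 19.2% and 17.2% of all features. With the length and GC trends removed, 0 were called higher and 5 lower (*WARS2*, *HARS2*, *EARS2*, *CARS2* and *NARS2*), against 10.9% and 11.9%. As deposited, both siCNOT4 libraries lay above both siControl libraries in 9 genes, below them in 1 and overlapped in 6, and 66.4% of all features lay above. After TMM scaling the counts were 0 above, 7 below and 9 overlapping, where 36.5% of all features lay above and 33.3% below. The direction in which most of these genes lay thus depended on the scaling. The median log2 fold change was 0.37 as deposited and -0.13 after TMM scaling, 0.13 and 0.16 under the median of all features.

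The 3 mitochondrial genes with an unadjusted p under 0.05 were *RARS2*, *TARS2* and *IARS2*. *RARS2*, the arginine enzyme, had 96.7 and 84.8 TPM in siControl and 136 and 128 TPM in siCNOT4, and differed by 0.54 on the log2 scale (SE 0.16, limma adjusted p 0.0680). *TARS2*, the threonine enzyme, had 73.2 and 56.3 against 91.0 and 97.3 TPM (0.54, limma adjusted p 0.0929), and *IARS2* had 221 and 165 against 271 and 253 TPM (0.45, limma adjusted p 0.114). Groups did not overlap in any of the 3, but their fold changes were within 0.05 of the median of all features, and after TMM scaling they were 0.02, 0.02 and -0.07.

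*MARS2*, the methionine enzyme of the mitochondrion, had the highest mitochondrial fold change, 0.74 (SE 0.38, limma adjusted p 0.178). It had 14.6 and 6.85 TPM in siControl and 17.1 and 17.9 TPM in siCNOT4, and the 2.13-fold gap between the controls was wider than the gap between the groups. *HARS2* had the lowest at -0.14, and *WARS2*, the tryptophan enzyme, was next at -0.12 with 23.7 and 18.7 against 20.4 and 18.1 TPM. *CARS2* had 38.0 and 33.8 against 33.7 and 35.9 TPM, *EARS2* 43.7 and 30.4 against 38.0 and 35.4 TPM, and *NARS2* 26.7 and 23.7 against 26.9 and 23.8 TPM. The fold changes of these 3 were between -0.04 and 0.01 as deposited. *VARS2*, the valine enzyme, had 8.16 ± 0.814 against 12.5 ± 0.653 TPM (SD, n = 2 each), without overlap, and a fold change of 0.56 (limma adjusted p 0.157). *VARS2* shares 22.0% of its exonic bases with *GTF2H4* on the same strand. *SARS2* shares 46.2% with *AC011455.2* on the same strand and 10.8% with *MRPS12* on the opposite strand, so the levels of *VARS2* and *SARS2* are uncertain. In all, 11 of the 36 members share annotated exonic bases with another gene of the tables.

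*HARS* and *HARS2* charge histidine tRNA in the cytosol and the mitochondrion and are divergent neighbours on chromosome 5. In RefSeq (GRCh38.p14) their start sites lie at 140691370 and 140691455, and the 84 bases between them, chr5:140691371-140691454, are shown on the plus strand because both genes start from this stretch. Capitals mark TTCCGG or its other strand CCGGAA, the core of sites bound by ETS factors, a motif searched after the sequence had been seen.
HARS-HARS2: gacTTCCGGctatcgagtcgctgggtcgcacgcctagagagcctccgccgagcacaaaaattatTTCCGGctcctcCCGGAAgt
The stretch holds 3 matches and has a GC content of 59.5%. Any match is held by 17.2% of 35116 RefSeq promoters of 300 bases, which are longer windows. That share is therefore no background for a count of matches in 84 bases. *HARS* had 187 and 191 TPM in siControl and 204 and 211 TPM in siCNOT4, while *HARS2* had 69.6 and 63.6 against 60.9 and 59.7 TPM. The neighbours thus lay in opposite directions without overlap, by 0.14 and -0.14 on the log2 scale, and neither passed the test (limma adjusted p 0.462 and 0.544). After TMM scaling both were negative, at -0.39 and -0.66, with limma adjusted p values of 0.228 and 0.0619. *HARS2* shares 11.7% of its annotated exonic bases with *HARS*, so reads could have been assigned to either without strand.

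The compartments were compared within each library, where a scaling factor common to all genes cancels. Summed over genes, the cytosolic set held 4740 and 3770 TPM in siControl and 4350 and 4100 TPM in siCNOT4. The mitochondrial set held 824 and 655 against 936 and 924 TPM. The cytosolic sum overlapped between groups while the mitochondrial sum did not. The sums stood in a ratio of 5.75 and 5.76 in the control libraries and of 4.65 and 4.43 after siCNOT4, so the controls were close to each other and above both siCNOT4 libraries. The median log2 fold change was 0.29 lower in the cytosolic than in the mitochondrial set (0.09 against 0.37, rounded). Taken for each of the 4 combinations of 1 library per group, that difference ran from -0.38 to -0.16. The same quantity was -0.01 for siControl replicate 1 against 2 and 0.11 for the siCNOT4 replicates. Under quantile normalization it was 0.09, with the opposite sign.

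Each cytosolic enzyme was also set against the mitochondrial enzyme for the same amino acid, in 17 pairs, with *EPRS*, *FARS2* and the phenylalanine subunits entering as their chains require. The TPM ratio was lower in both siCNOT4 libraries than in both siControl libraries in 9 pairs, higher in 4 and overlapping in 4. No share over other gene pairs was obtained to set beside these counts. The pairs that share *EPRS* or *FARS2* are not separate from each other. The median log2 change of the ratio was -0.37. The *MARS*/*MARS2* ratio went from 21.1 and 35.4 in siControl libraries to 11.8 and 11.0 in siCNOT4 libraries, a log2 change of -1.26 that became -0.89 without siControl replicate 2 and -1.64 without replicate 1. The *YARS*/*YARS2* ratio was 7.41 and 7.44 against 3.81 and 3.24, a log2 change of -1.08, and the controls nearly coincided. The *AARS*/*AARS2* ratio, 8.81 and 11.4 in the controls, was 6.19 and 5.33 after siCNOT4. The *IARS*/*IARS2* ratio was 1.20 and 0.967 against 0.693 and 0.622. In the opposite direction, the *RARS*/*RARS2* ratio was 1.70 and 1.89 against 2.55 and 2.77, a log2 change of 0.57, and the *EPRS*/*EARS2* ratio was 4.76 and 3.47 against 5.71 and 5.18. The order of the pairs depended on single libraries: without siControl replicate 2 the change of *YARS*/*YARS2* (-1.08) was larger in size than that of *MARS*/*MARS2*. Without siControl replicate 1 the change of *EPRS*/*EARS2* was 0.65 and that of *WARS*/*WARS2* 0.54, both above *RARS*/*RARS2* at 0.49. No test across features applies to these ratios, and 2 libraries against 2 cannot go below 0.333 in a two-sided exact permutation test.

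**Figure D3:**
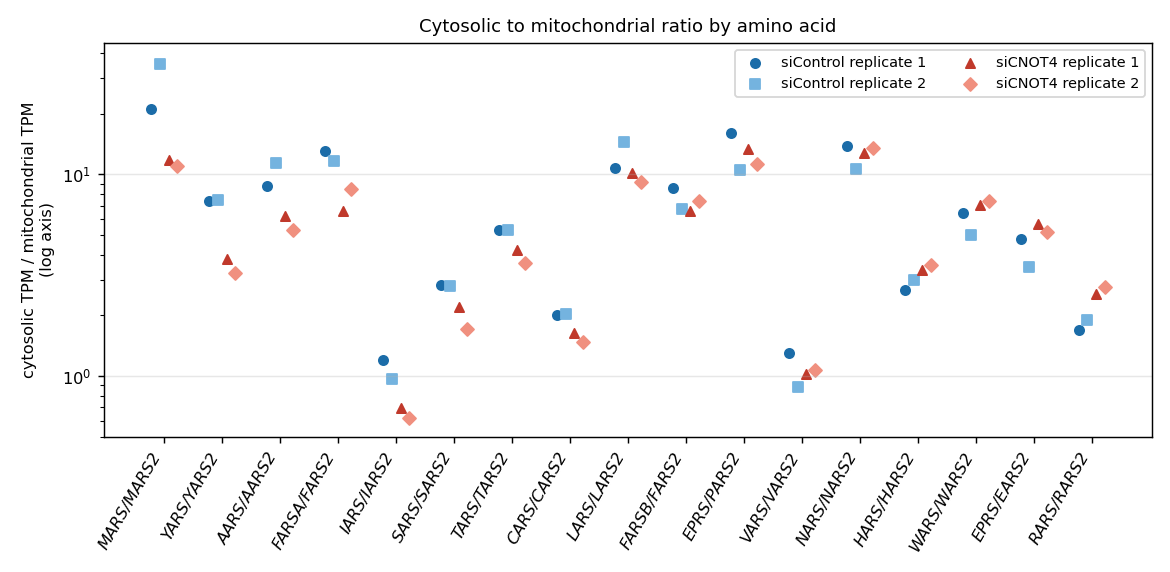
Ratio of cytosolic to mitochondrial TPM (log axis) for the 17 pairs in each of the 4 libraries, ordered by the change of the ratio; blue marks are siControl and red marks siCNOT4. In the 9 pairs at the left both red marks lie below both blue marks, and in the 4 at the right both lie above.

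*ATF4* itself had 1010 and 1150 TPM in siControl and 358 and 352 TPM in siCNOT4, a ratio of 0.329. It fell by 1.60 on the log2 scale (limma adjusted p 0.0227). Of a list of 16 genes of the ATF4 response without synthetases, 7 were called lower and 0 higher as deposited, against 1.3% and 11.3% of all features. The fold change was negative in 14 and positive in 2, with a median of -0.79. After TMM scaling 12 were called lower and 0 higher, against 4.51% and 4.86%, with a median of -1.31. The 7 called as deposited were *ATF4*, *NUPR1*, *DDIT4*, *CHAC1*, *MTHFD2*, *PHGDH* and *PSAT1*. *ATF3* lay the other way, at 76.6 and 48.1 against 105 and 102 TPM, and did not pass (limma adjusted p 0.0780).

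Of the cytosolic synthetases, 12 are reported ATF4 targets (*AARS*, *CARS*, *EPRS*, *GARS*, *IARS*, *LARS*, *MARS*, *NARS*, *SARS*, *TARS*, *WARS* and *YARS*). As deposited, 1 of the 12 was called lower and 0 higher, against 1.3% and 11.3% of all features. After TMM scaling 5 were called lower and 0 higher, against 4.51% and 4.86%. All 12 lay under the median of all features on both scales. Under quantile normalization, where that median was 0.02, *EPRS* (0.22), *NARS* (0.07) and *TARS* (0.07) lay above it and the other listed genes below. Their median fold change was -0.19 as deposited and -0.72 after TMM scaling, against 0.30 and -0.22 for the 8 other cytosolic genes. Among those 8, 1 was called higher (*RARS*) and both siCNOT4 libraries lay above both siControl libraries in 6, where 66.4% of all features did. After TMM scaling 0 of the 8 were called, with both siCNOT4 libraries above in 1 and below in 5. On that scale 36.5% of all features lay above and 33.3% below. The gap between the medians was -0.50 and ran from -0.64 to -0.26 over the 4 pairings, while the siControl replicates differed by 0.27 and the siCNOT4 replicates by 0.14. The list mixes enzymes with separate values: *YARS* at -0.80 and *EPRS* at 0.43 were both on it, and *FARSA*, at -0.31, was not. No test was made of the gap.

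**Figure D4:**
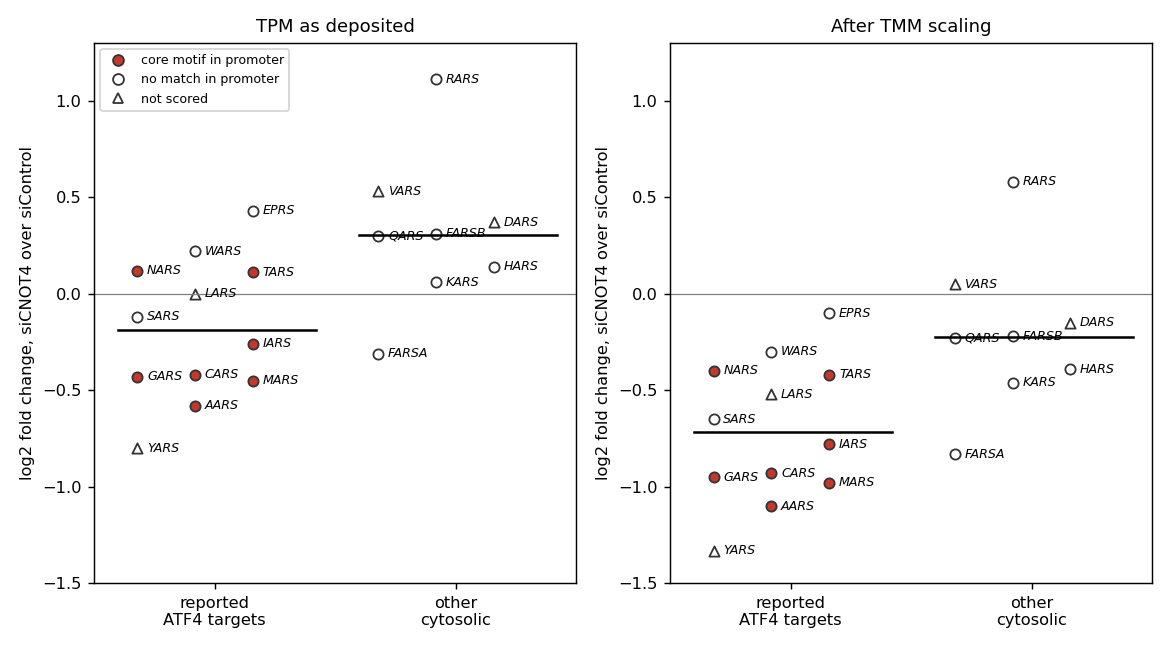
Log2 fold change (siCNOT4 over siControl) of the 20 cytosolic synthetase genes, split into the 12 reported ATF4 targets and the other 8, for TPM as deposited (left) and after TMM scaling (right); bars are medians, filled circles have the element core in the promoter, open circles have no match and triangles were not scored. The median of the listed genes is -0.19 at left and -0.72 at right, under that of the others at 0.30 and -0.22.

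Promoters of 30 of the 36 members were matched by symbol in RefSeq (GRCh38.p14), each spanning 250 bases before to 50 after the start site. They were searched for TGATGNAA and its other strand TTNCATCA, the core of the C/EBP-ATF response element. Some genes have more than 1 promoter there, and a gene was counted once if any held the core. It was present for 7 of 16 cytosolic genes (43.8%) and for 1 of 14 mitochondrial genes (7.14%), against 4.46% of all 27305 genes and 3.62% of all 35116 promoters. The 8 sites are shown with the match in capitals, since holding a match divides the cytosolic genes. Each is given 5′ to 3′ on the strand of its gene.
AARS: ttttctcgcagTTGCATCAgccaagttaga
CARS: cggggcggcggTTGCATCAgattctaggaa
GARS: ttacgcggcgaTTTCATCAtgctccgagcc
IARS: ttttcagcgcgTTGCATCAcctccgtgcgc
MARS: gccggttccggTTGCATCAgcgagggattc
NARS: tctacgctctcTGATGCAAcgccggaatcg
TARS: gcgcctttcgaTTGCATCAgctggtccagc
YARS2: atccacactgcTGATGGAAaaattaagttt
They lie at chr16:70289675-70289704 on the minus strand (*AARS*), chr11:3057407-3057436 on the minus strand (*CARS*), chr7:30594834-30594863 on the plus strand (*GARS*) and chr9:92293692-92293721 on the minus strand (*IARS*). The others lie at chr12:57488053-57488082 on the plus strand (*MARS*), chr18:57621804-57621833 on the minus strand (*NARS*), chr5:33440956-33440985 on the plus strand (*TARS*) and chr12:32756076-32756105 on the minus strand (*YARS2*). Relative to the start site, the first base of the match is at -33 in *GARS*, -13 in *IARS*, -4 in *MARS*, -2 in *CARS*, 3 in *TARS* and 15 in *NARS*. It is farther upstream in *AARS* (-187) and *YARS2* (-197).

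All 7 cytosolic matches fell among the 10 reported ATF4 targets with a promoter, and 0 of the 6 other cytosolic genes held the core. The list and the motif are not independent, since the element is a basis on which such targets are known. The 7 genes with a match had fold changes from -0.58 to 0.12 with a median of -0.42. Both siCNOT4 libraries lay below both siControl libraries in 4 of them and above in 0. The 9 cytosolic genes without a match had fold changes from -0.31 to 1.11 with a median of 0.22, with 1 below and 4 above. Of all features, 10.6% lay below and 66.4% above. *YARS*, the cytosolic gene with the lowest fold change, had no matched promoter and is in neither group, as are *LARS*, *DARS* and *VARS*. After TMM scaling the medians were -0.93 with a match and -0.30 without, so the sign of the latter depended on the scaling. *NARS* and *TARS*, whose matches lie just after the start site, had fold changes of 0.12 and 0.11 and overlapping groups. *IARS*, whose match lies before the start site, also had overlapping groups, with a fold change of -0.26. After TMM scaling *NARS*, *TARS* and *IARS* were at -0.40, -0.42 and -0.78, each with both siCNOT4 libraries below both siControl libraries. A match describes the letters of the window and shows no binding.

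Genes of neighbouring steps were followed as lists. Of 14 genes that act beside the cytosolic synthetases, 2 were called lower and 0 higher as deposited, against 1.3% and 11.3% of all features. They were *EEF1B2* (868 and 1040 against 600 and 541 TPM, log2 fold change -0.74, limma adjusted p 0.0368) and *EEF1G* (2190 and 2330 against 1670 and 1560 TPM, -0.48, limma adjusted p 0.0492). Both encode subunits of the exchange factor that recharges eEF1A, the carrier of aminoacyl-tRNA to the ribosome. After TMM scaling neither passed (limma adjusted p 0.0570 and 0.0938). *SEPSECS*, which makes selenocysteinyl-tRNA, had the highest fold change of this list, 1.08 (5.76 and 3.55 against 11.1 and 10.4 TPM), and did not pass (limma adjusted p 0.0610). *PSTK*, which acts just before it in that route, was next at 0.93 on the log2 scale (12.6 and 10.6 against 22.6 and 23.3 TPM, limma adjusted p 0.0584). *XPOT*, the export receptor for tRNA, had 171 and 80.1 against 131 and 124 TPM, both siCNOT4 values lying between the controls. Of 8 genes of the corresponding mitochondrial steps, 0 passed in limma as deposited. At an unadjusted limma p under 0.05 there were 1 higher and 0 lower, against 38.0% and 4.0% of all features. *QRSL1*, a subunit of the amidotransferase that makes mitochondrial glutaminyl-tRNA, had 24.5 ± 6.39 against 37.0 ± 0.481 TPM (SD, n = 2 each) and the highest fold change of these, 0.60. *MTFMT*, which formylates the initiator methionyl-tRNA, was next at 0.54, with 12.8 and 10.1 against 17.3 and 16.7 TPM. The median of all features was 0.50 as deposited, and after TMM scaling *QRSL1* and *MTFMT* were at 0.09 and 0.05.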

How the data were processed

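RNA-seq was made from HEK293 cells, 2 siControl and 2 siCNOT4 libraries. The deposited values are TPM per gene symbol, per the file headers, and each library sums to 1000000. Per the submitters' processing notes, the authors used FastQC 0.11.2, STAR 2.5.3a, featureCounts and the hg19 build. The annotation, strand setting and filters are not given in the sources used here.

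Features with a mean of at least 1 TPM (14208 of 20457) were tested on log2(TPM + 1) with limma 3.58.1 in R 4.3.3 (moderated test with a mean trend, Benjamini-Hochberg adjustment over all tested features, threshold 0.05). Fold changes are on that scale, which understates changes of low genes. TMM factors were computed in R with the published algorithm at its usual trims and applied to TPM, as scaling only. A mean ± SD is over 2 libraries. The script was tested on simulated data. Alternatives were TMM scaling, quantile normalization, centring on the library median, removal of length and GC trends, a pseudocount of 0.1, no filter, a minimum of 5 TPM, a replicate block and leaving out each library. Lengths came from GENCODE and sequences from RefSeq, joined by symbol. Named in full were members called, the 5 lowest and 3 highest fold changes of each compartment, *GARS* and *KARS*, and the 3 largest falls and 2 largest rises among pair ratios; of related lists, members called or the 2 with the largest fold change. Other members were named after their values were seen. The members and gene lists were chosen with earlier results of these data known.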

Additional observations from a re-analysis of the deposited data

How the results depend on the processing

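Of the 36 genes, 2 were called as deposited. The count was 5 after TMM scaling, 5 under quantile normalization, 1 with each library centred on its median and 15 with length and GC trends removed. It was 1 each with a pseudocount of 0.1, with no filter and at a minimum of 5 TPM. Of all tested features, 12.6% were called as deposited, 9.37% after TMM scaling and 15.3% under quantile normalization. That share was 3.82% after centring and 22.8% with trends removed. It was 3.93% with the pseudocount of 0.1, 4.6% with no filter and 1.29% at 5 TPM. Calls higher (1 as deposited) were 0 after TMM scaling and 0 after centring. Calls lower (1 as deposited) were 5 after TMM scaling, 4 under quantile normalization, 14 with trends removed, and 0 with the pseudocount of 0.1, with no filter and at 5 TPM. Leaving out 1 library gave 0 to 29 calls, 0 to 23 higher and 0 to 8 lower: 29 without siControl replicate 1, 19 without siControl replicate 2, and 0 without either siCNOT4 replicate (limma, with 2 at an unadjusted p under 0.05 each time). After TMM scaling, leave-one-out counts of genes called lower ran from 0 to 24 (settings added after seeing the data). In these fits the lone library is assumed to vary like the other group, and 11311 of 14208 features were called without siControl replicate 1.

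With the replicate number as a replicate block, 3 of the 36 were called, 1 higher (*RARS*) and 2 lower (*YARS* and *AARS*). In that fit 25.7% of all tested features were called. Nothing in the labels says that equal numbers mark a shared culture. The replicate 1 minus 2 differences of the groups correlated across 14208 features with r = 0.171.

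The cytosolic median relative to all features, -0.41, was -0.07 under quantile normalization and -0.27 with no filter, and -0.49 to -0.37 leaving out 1 library. The mitochondrial one, -0.13, was -0.16 after TMM scaling, -0.16 under quantile normalization, -0.10 with trends removed, -0.17 with a pseudocount of 0.1, 0.02 with no filter, -0.10 at 5 TPM and -0.21 to -0.12 leaving out 1 library. The difference of the medians, -0.29, was 0.09 under quantile normalization and -0.32 to -0.21 leaving out 1 library. The cause of these shifts was not tested.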
